A study of Mus with 2 samples.

Results

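The mitochondrially encoded respiratory genes examined here were mt-Nd1, mt-Nd2, mt-Nd3, mt-Nd4, mt-Nd5, mt-Co1, mt-Co2, mt-Co3, mt-Atp6 and mt-Cytb. They were picked by gene symbol, with earlier results of these data known. They are 10 of the 27998 genes in the count tables and 10 of the 13 genes there whose symbol begins with mt-. All 10 were detected in both libraries. Cells were sorted from mouse tibias and fibulas as hematopoietic stem cells (HSCs), a gate of lineage-negative cells with Sca-1 and c-Kit (LSK), without FLT3, with CD150 and without CD48. Mx1-Cre Id2+/+ cells were compared with Mx1-Cre cells in which Id2, an inhibitor of DNA-binding proteins, had been deleted. For each genotype 1000 cells from 5 pooled mice of 8 to 12 weeks were sorted and captured on the 10x Genomics Chromium as 1 library. Both groups carried Mx1-Cre, a recombinase driven by an interferon-responsive promoter that is not restricted to HSCs, and per the study's methods had received polyinosinic:polycytidylic acid (pIpC), which induces interferon. One clause of the labels on the Id2-deleted sample gives Id2+/+ bones as its source, whereas its title and genotype field give the deletion, which set the group here. Single animals within a pool cannot be told apart, and both pools appeared to be of mixed sex, as given below. No replicate check was possible, and every interval below is a 95% interval for counting error only.

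The mitochondrial genome is a small circle present in many copies per cell. It encodes a core set of subunits of the respiratory chain and of ATP synthase, and the far larger number of remaining subunits is encoded in the nucleus and imported. Long transcripts are made from both strands and cut into mRNAs, so the amount of each mRNA depends on its processing and decay as well as on transcription. HSCs at rest are known for low respiration, and erythroid precursors for heavy use of mitochondria in heme synthesis until mitochondria are cleared late in maturation.

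The libraries held 8612217 (Id2+/+) and 17140713 (Id2 deleted) UMIs, that is tagged RNA molecules, of which 47.7% and 69.3% lay in 349 and 632 called cells. Only 1 cell barcode was shared between the libraries. Clustering on genes outside the mitochondrial genome gave 262 and 416 HSCs. In them the 13 HSC markers summed to 2110 and 1771 CPM (counts scaled to a total of 1000000 UMIs). The same markers summed to 160 and 92.2 CPM in the neutrophil-like cells below. Marker lists also helped to set the kinds apart, so such sums describe the kinds and do not test them. The HSC class was what remained after other kinds were set apart. It held a cluster of 12 and 115 cells with the B-lymphoid genes Vpreb3, Vpreb1 and Igll1 among its 10 leading genes. Igll1 had no UMI in Id2-deleted HSCs, so its place there came from the Id2+/+ cells. That cluster had no HSC marker among its 10 leading genes, and neither had several others of the class. Without the Vpreb3 cluster the summed ratio given below was 0.8823, against 0.881 with it. This left in most of the 66 Id2+/+ cells of cluster 4 of a second clustering below, which Vpreb3 also led. The first clustering also gave 27 and 40 neutrophil-like cells, 51 and 163 erythroid-like cells and 9 and 13 hemoglobin-rich cells. Median depth in HSCs was 7081 and 9663 UMIs. Id2 had 22 UMIs in Id2+/+ HSCs and 0 in Id2-deleted HSCs. HSCs with Xist and no Y-linked UMIs numbered 84 in the Id2+/+ and 231 in the Id2-deleted library. Those with Y-linked and no Xist UMIs numbered 93 and 90. The libraries thus appeared to hold female and male cells in different proportions.

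On the mitochondrial chromosome (MT) of GRCm38, the assembly also called mm10, RefSeq places the complex I genes at MT:2751-3707 (mt-Nd1), MT:3914-4951 (mt-Nd2), MT:9459-9806 (mt-Nd3), MT:10167-11544 (mt-Nd4) and MT:11742-13565 (mt-Nd5). The complex IV genes lie at MT:5328-6872 (mt-Co1), MT:7013-7696 (mt-Co2) and MT:8607-9390 (mt-Co3), with mt-Atp6 at MT:7927-8607 and mt-Cytb at MT:14145-15288. These genes have no introns. mt-Atp6 overlaps mt-Atp8 (MT:7766-7969) and mt-Nd4 overlaps mt-Nd4l (MT:9877-10173), so reads from the shared transcripts may be divided between the genes of each pair. mt-Nd5 overlaps mt-Nd6 (MT:13552-14070), which is encoded on the opposite strand.

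The first comparison asked whether HSCs without Id2 differed in RNA for the respiratory subunits that mitochondria encode. Together the 10 members took a smaller share of the RNA of Id2-deleted HSCs, and each member was lower by a factor short of 1.5, although 5 of the 10 turned to the other direction once free RNA was subtracted. In Id2+/+ HSCs they held 51926 of 2133449 UMIs, or 2.43% (2.41 to 2.45). In Id2-deleted HSCs they held 100447 of 4685729, or 2.14% (2.13 to 2.16). The ratio of deleted to Id2+/+ was 0.881 (0.871 to 0.890). The cells of both libraries overlapped widely, with a median per cell of 2.48% and 2.17%, quartiles of 2.198% to 2.76% and 1.92% to 2.48%, and extremes of 1.57% to 4.07% and 1.28% to 7.15%.

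The subunits of complex I, which takes electrons from NADH, were all lower in the Id2-deleted library on this scale, and mt-Nd1, mt-Nd2 and mt-Nd4 were not with free RNA subtracted (given below for each member). mt-Nd1 had 1892 CPM, that is counts scaled to a total of 1000000 UMIs, in Id2+/+ and 1595 in Id2-deleted HSCs, a ratio of 0.843 (0.811 to 0.876). mt-Nd4, which forms part of the proton-pumping arm, went from 1399 to 1123 CPM, a ratio of 0.803 (0.767 to 0.840). mt-Nd3, a small subunit at the junction of the arms of the complex, had 271 and 188 CPM. Its ratio of 0.692 (0.622 to 0.770) was the lowest of the 10. mt-Nd2 (554 and 491 CPM, ratio 0.886) and mt-Nd5 (176 and 147 CPM, ratio 0.837) are also subunits of the membrane arm, and the ratio of mt-Nd2 was the highest of the 5. The intervals of mt-Nd2 (0.826 to 0.952) and of mt-Nd5 (0.737 to 0.951), which had the fewest UMIs, overlapped that of mt-Nd1.

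mt-Cytb, the cytochrome b of complex III and its single subunit encoded in mitochondria, had 2603 and 2366 CPM, a ratio of 0.909 (0.880 to 0.939). The catalytic core of complex IV, which reduces oxygen, was also lower over all HSCs. Within ranges of UMIs per cell, given below, mt-Co1 was not (ratio of range means 1.06). mt-Co1, the subunit that binds the heme and copper of the active site, had 4161 and 3632 CPM (ratio 0.873, 0.851 to 0.896). mt-Co2, which receives electrons from cytochrome c, had 2235 and 2069 CPM, and its ratio of 0.926 (0.894 to 0.958) was the nearest to 1 of the 10. mt-Co3 had 5168 and 4449 CPM (ratio 0.861, 0.841 to 0.881), and mt-Atp6, the subunit of the proton channel of ATP synthase, 5879 and 5377 CPM (ratio 0.914, 0.895 to 0.934). As counted, the order of the ratios thus ran from mt-Nd3 and mt-Nd4 at the low end to mt-Co2 at the high end, with mt-Atp6 and mt-Cytb close to mt-Co2. With free RNA subtracted this order did not hold. mt-Nd3 (0.700) was still the lowest, but mt-Nd4 (1.14) was the highest of the 10 and mt-Co2 (0.977) lay below mt-Atp6 and mt-Cytb.

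**Figure D1:**
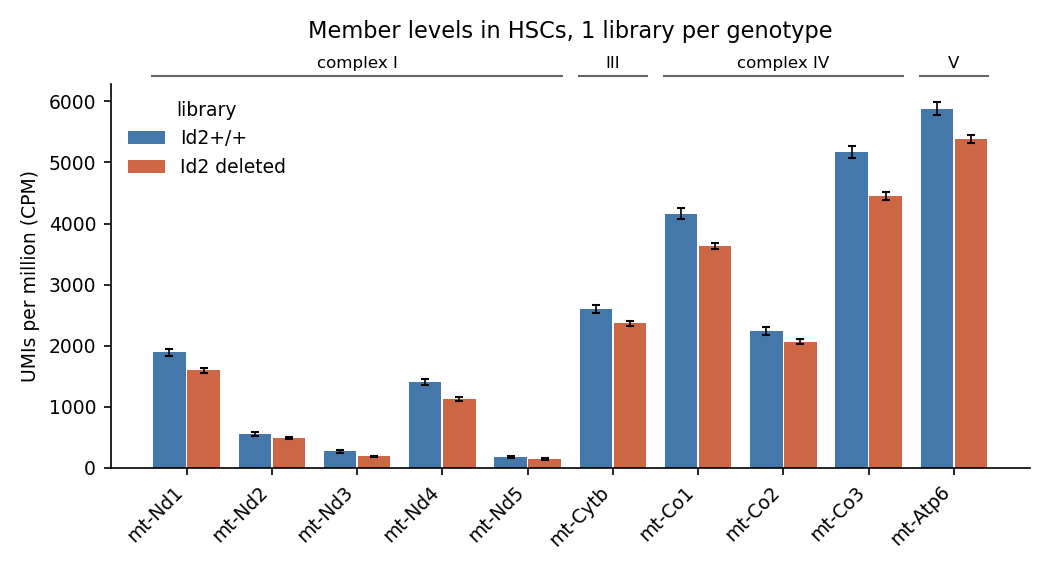
Level in CPM of each member in the HSCs of the Id2+/+ and the Id2-deleted library, grouped by respiratory complex. Bars are the level summed over all HSCs of a library and lines are exact 95% Poisson intervals. All 10 members are lower in the Id2-deleted library on this scale, from a ratio of 0.692 for mt-Nd3 to 0.926 for mt-Co2, and 5 are not once free RNA is subtracted.

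With 1 library per genotype, a gene was called different when its ratio was at least 1.5 or at most 1 over 1.5. None of the 10 members was called in either direction, where 3.30% of the 10458 genes tested in HSCs were higher and 13.5% were lower. At a fold of 1.2, 2 members, mt-Nd3 and mt-Nd4, were past the threshold, both lower, where 15.7% of all genes tested were higher and 32.9% lower by that fold. The median log2 ratio of the members was −0.21, against −0.08 for all genes tested.

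Depth and free RNA differed between the libraries along with the members. UMIs per HSC outside the mitochondrial genome were 1.39 times as many in the Id2-deleted library, and UMIs of the members 1.22 times as many (198 and 241 per HSC). Empty droplets, which hold free RNA, had 5.48% of their UMIs in the members in the Id2+/+ library and 3.61% in the Id2-deleted library. From the hemoglobin UMIs of HSCs, free RNA was estimated at 10.5% and 5.40% of their UMIs. With that amount subtracted the ratio of the summed members was 0.991, and mt-Nd4 (1.14), mt-Atp6 (1.12), mt-Nd2 (1.11), mt-Nd1 (1.07) and mt-Cytb (1.05) lay above 1. mt-Nd3 (0.700), mt-Nd5 (0.888), mt-Co1 (0.887), mt-Co2 (0.977) and mt-Co3 (0.902) stayed below 1 with free RNA subtracted. With TMM factors, which moved all log2 ratios up by 0.11, the summed ratio was 0.949. Neutrophil markers, 12 of 12 detected in the HSCs of each library, summed to 1117 and 657 CPM there, and erythroid markers, 13 of 13 detected, to 3035 and 2583 CPM. The part of free RNA, of depth and of other cells in the member ratios was not tested beyond these values. A lower member share can reflect fewer of these mRNAs or more of other RNA, and the counts do not separate the 2 cases.

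Members also varied with depth within each library. With the HSCs of each library ordered by UMIs and cut into 3 equal sets, the member share was 2.69%, 2.50% and 2.28% from the shallowest to the deepest Id2+/+ set, and 2.45%, 2.24% and 1.96% in the Id2-deleted library. The Pearson correlation of the share with log10 UMIs was −0.427 over 262 Id2+/+ and −0.400 over 416 Id2-deleted HSCs, a description of cells that share a library and have UMIs on both axes.

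Not every member shared in this. mt-Co1 had the strongest correlation of its CPM with log10 UMIs, −0.578 and −0.616 in the Id2+/+ and Id2-deleted HSCs, on a measure that counting noise weakens in members with few UMIs. mt-Co3 (−0.390 and −0.366), mt-Atp6 (−0.272 and −0.262) and mt-Co2 (−0.208 and −0.257) followed in the same direction. mt-Nd1 (0.213 and 0.217) and mt-Nd2 (0.106 and 0.105) went the other way, and mt-Nd3, mt-Nd4, mt-Nd5 and mt-Cytb lay between −0.172 and −0.0279. Both libraries therefore gave nearly the same order of the members by their relation to depth.

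HSCs were then compared within 4 ranges of UMIs per cell that both libraries covered, a comparison chosen after the relation with depth was seen. It left out the HSCs under 6178 or from 20000 UMIs, and free RNA was not matched. From 6178 to 8000 UMIs the members held 2.54% of UMIs in 80 Id2+/+ cells and 2.42% in 121 Id2-deleted cells (ratio 0.955, 0.935 to 0.976). From 8000 to 10000 UMIs the values were 2.32% in 45 cells and 2.34% in 106 cells (1.01, 0.983 to 1.03). They were 2.33% in 28 and 2.09% in 89 cells from 10000 to 13000 UMIs (0.898, 0.874 to 0.922), and 2.203% in 21 and 2.01% in 67 cells from 13000 to 20000 UMIs (0.911, 0.887 to 0.936). The ratio of the means over the ranges was 0.943, nearer to 1 than the 0.881 over all HSCs, and the interval held 1 in the second range. Applying the same minimum to both libraries, with no ranges, gave 0.907.

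Within the ranges the members no longer moved together. mt-Nd1 had ratios below 1 in all 4 ranges, from 0.683 to 0.874, as did mt-Nd2 (0.763 to 0.928), mt-Nd3 (0.653 to 0.956) and mt-Nd4 (0.764 to 0.875). The intervals held 1 for mt-Nd2 in the shallowest range (0.795 to 1.08) and the deepest (0.747 to 1.05), and for mt-Nd3 in the second range (0.738 to 1.25). mt-Co1 had 4749, 4003, 3262 and 3089 CPM in Id2+/+ HSCs from the shallowest range to the deepest, and 5187, 4379, 3533 and 2907 CPM in Id2-deleted HSCs. It was thus higher in the Id2-deleted library in 3 of the 4 ranges, by ratios from 1.08 to 1.09, and its ratio of range means was 1.06. mt-Co2 (0.980), mt-Atp6 (0.967), mt-Co3 (0.936), mt-Cytb (0.933) and mt-Nd5 (0.923) had ratios of range means closer to 1 than mt-Nd1 (0.785) and mt-Nd3 (0.714). The direction of mt-Co1 between the libraries thus depended on whether cells were compared within ranges of UMIs, and that of mt-Nd1, mt-Nd2, mt-Nd3 and mt-Nd4 did not, whereas subtraction of free RNA turned all of these but mt-Nd3.

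**Figure D2:**
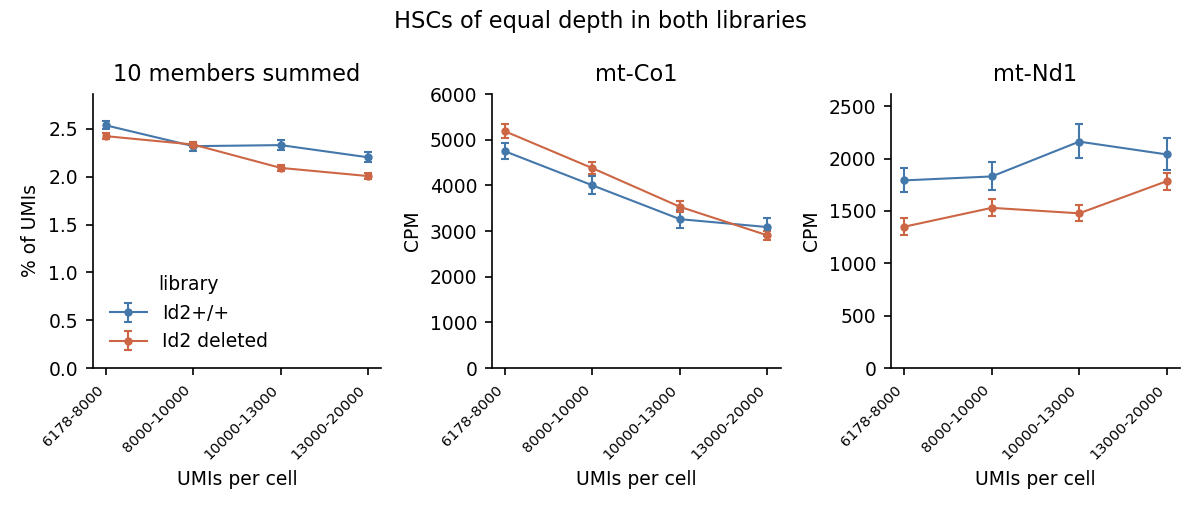
HSCs of both libraries in 4 ranges of UMIs per cell, showing the summed members as a percent of UMIs and mt-Co1 and mt-Nd1 in CPM, with exact 95% intervals for counting error. mt-Co1 declines from the shallowest range to the deepest in both libraries and is higher in the Id2-deleted library in 3 ranges, and mt-Nd1 is lower in that library in all 4.

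Members also varied between HSCs beyond counting noise. The spread left after the counting variance was taken from the variance between cells, as a percent of the mean, was 24.4% for mt-Co1 in Id2+/+ and 35.2% in Id2-deleted HSCs. For mt-Nd1 it was 20.3% and 35.2%. It was lower for mt-Atp6 (14.1% and 19.6%), mt-Co3 (15.03% and 21.5%) and mt-Co2 (14.7% and 17.98%). mt-Nd3 (31.2% and 25.8%) and mt-Nd5 (16.7% and 36.5%) had at most 2.21 UMIs per cell on average, so that counting made up most of their spread, and they cannot be ranked against the others on this measure. No UMI of mt-Nd5 was found in 23.3% of Id2+/+ and 21.6% of Id2-deleted HSCs. mt-Nd1, mt-Nd4, mt-Co1, mt-Co2, mt-Co3, mt-Atp6 and mt-Cytb had at least 1 UMI in each HSC of both libraries.

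Pairs of members were weakly correlated in CPM across HSCs, on a measure that counting noise weakens, most of all in members with few UMIs. The 45 pairs had a median Pearson correlation of 0.142 over 262 Id2+/+ HSCs and 0.209 over 416 Id2-deleted HSCs. The highest was 0.478 in Id2+/+ HSCs, between mt-Co2 and mt-Co3, and 0.606 in Id2-deleted HSCs, between mt-Co3 and mt-Atp6. The lowest, −0.193 and −0.080, was that of mt-Nd1 with mt-Co1 in both libraries. The CPM of mt-Nd1 and of mt-Co1 correlated with depth in opposite directions, and the part of depth in this pair was not tested.

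The balance of mt-Co1 and mt-Nd1 was therefore followed across cells as UMIs of mt-Co1 per UMI of mt-Nd1, a measure taken within the same cells that needs no scaling to total UMIs. It was chosen after the correlations were seen, is not divided by gene length and was compared only between cells, not as the level of one gene against the other. Over all HSCs it was 2.199 (2.12 to 2.28) in the Id2+/+ library and 2.28 (2.22 to 2.34) in the Id2-deleted library. With free RNA subtracted it was 2.97 and 2.48, so the direction between the libraries turned. Free RNA was not subtracted from the values that follow. The balance itself varied with depth. Within the 4 ranges of UMIs it was 2.65, 2.19, 1.51 and 1.51 in Id2+/+ HSCs from the shallowest to the deepest, and 3.85, 2.86, 2.39 and 1.63 in Id2-deleted HSCs. The intervals of the libraries did not overlap in the first 3 ranges and overlapped in the fourth (1.37 to 1.67 and 1.54 to 1.73).

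A second clustering of HSCs, which did not use mitochondrial genes, gave 7 clusters that mostly came from 1 library each, and the balance differed more than 3-fold among them. It was highest, at 3.62 (3.45 to 3.79), in the 192 Id2-deleted cells of cluster 1, an HSC-like cluster led by Cd74, Phf11b and H2-Aa, and 2.75 (2.62 to 2.89) in the 179 Id2+/+ cells of cluster 2, an HSC-like cluster led by Meg3, Fos and Dusp1. It was lowest, at 1.10 (1.01 to 1.19), in the 27 Id2-deleted cells of cluster 7, which was left unnamed because the mitotic genes Aurkb, Ube2c and Top2a led it beside the platelet gene Pf4, and which had a median of 22555 UMIs per cell.

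The other clusters lay between. Cluster 3 (87 Id2-deleted cells, led by Ung, Hells and Lig1, which act in DNA repair and replication) had a balance of 1.92. Cluster 4 (66 Id2+/+ cells, led by Dntt, Ccl5 and Vpreb3) had 1.53, and cluster 5 (65 Id2-deleted cells, platelet-biased HSC-like, led by Pf4, Gp1bb and Sdpr) had 1.70. Cluster 6, activated HSC-like and led by the mitotic genes Ccnb2 and Cenpa, held 10 Id2+/+ and 45 Id2-deleted cells with overlapping values of 2.01 (1.68 to 2.40) and 2.27 (2.07 to 2.49). Clusters 1 and 2, with the highest balance, were the shallowest, and cluster 7, with the lowest, was the deepest. Median UMIs were 7909 in the Id2-deleted cells of cluster 1 and 6465 in cluster 2, against 10966.5 in cluster 4, 11634 in cluster 3 and 13176 in cluster 5. The part of depth in the difference between clusters was not tested.

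Both genes contributed to the balance. From cluster 1 to cluster 7 of the Id2-deleted library mt-Co1 went from 4997 to 2116 CPM and mt-Nd1 from 1382 to 1927 CPM. As shares of all member UMIs these were 20.7% and 11.4% for mt-Co1 and 5.72% and 10.4% for mt-Nd1. Summed over the 10 members, the same cells had 2.41% and 1.85% of their UMIs in the members.

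**Figure D3:**
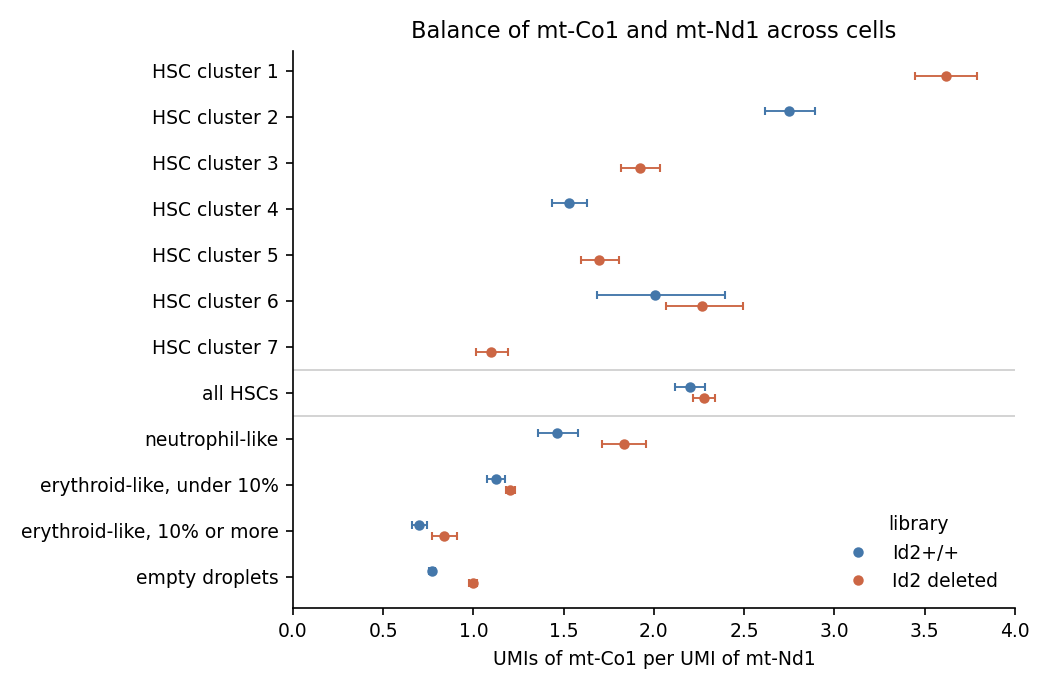
UMIs of mt-Co1 per UMI of mt-Nd1 in the 7 HSC clusters, in all HSCs, in the other kinds of cells and in empty droplets of each library, with exact 95% intervals. Clusters with fewer than 10 cells of a library show no point for it. The balance lies between 1.10 and 3.62 in the HSC clusters shown, and at 0.700 and 0.837 in erythroid-like cells with 10% or more mitochondrial UMIs.

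Other kinds of cells in the sort gave the same members in another cellular setting. In neutrophil-like cells the 12 neutrophil markers summed to 74366 and 95165 CPM in the Id2+/+ and Id2-deleted library. These cells had member shares close to those of HSCs, with 2.43% (2.39 to 2.47) in Id2+/+ and 2.17% (2.14 to 2.204) in Id2-deleted cells. Their ratio between the libraries was 0.893 (0.872 to 0.915). Ratios ran from 0.636 for mt-Nd3 and 0.685 for mt-Nd4 to 0.993 for mt-Co2 and 1.195 for mt-Nd5, with an interval of 0.839 to 1.72 for the last. One member, mt-Nd3, was called lower and none higher, where 8.29% of 5115 genes were higher and 11.8% were lower. mt-Nd3 was again the lowest of the members, on 81 UMIs in each library.

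Neutrophil-like cells differed from HSCs of the same library in the make-up of their member RNA. In the Id2+/+ library mt-Atp6 was 1.16 (1.12 to 1.21) and mt-Nd1 1.28 (1.196 to 1.37) times the HSC level, and mt-Nd2 0.704 (0.598 to 0.824) and mt-Nd3 0.646 (0.506 to 0.817) times. The Id2-deleted library gave 1.17 and 1.19 for mt-Atp6 and mt-Nd1, and 0.626 and 0.594 for mt-Nd2 and mt-Nd3. The 4 directions were shared by the libraries. The balance of mt-Co1 to mt-Nd1 was 1.46 (1.36 to 1.58) and 1.83 (1.71 to 1.96), both below that of all HSCs, which were shallower. Against HSCs of 13000 to 20000 UMIs, with 1.51 (1.37 to 1.67) and 1.63 (1.54 to 1.73), the intervals overlapped in both libraries.

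Erythroid-like cells were the kind on which a limit on the mitochondrial share bore. Their 13 erythroid markers, Klf1, Car1 and Epor among them, summed to 18617 and 18567 CPM, against 3035 and 2583 CPM in HSCs. With no limit, the members held 3.53% (3.50 to 3.56) of UMIs in Id2+/+ cells and 2.21% (2.195 to 2.22) in Id2-deleted cells, a ratio of 0.625 (0.618 to 0.631). All 10 members were lower, from 0.428 for mt-Nd3 to 0.702 for mt-Co1, and 8 of the 10 were called lower, where 3.90% of 8841 genes were higher and 14.1% were lower. mt-Co1 and mt-Co2 (0.671) were the members short of the fold.

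These values rested on a small number of cells with a very high mitochondrial share. All cells with 10% or more mitochondrial UMIs were erythroid-like, namely 16 of 51 Id2+/+ cells (31.4%, 19.1 to 45.9) and 7 of 163 Id2-deleted cells (4.29%, 1.74 to 8.65). They held 37.4% and 7.05% of the member UMIs of their kind. They stood apart from the rest, since the highest erythroid-like cell under the limit had 4.64% and 7.36% and the lowest above it 11.8% and 15.7%.

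In these cells the members held 17.4% (17.1 to 17.6) of UMIs in the Id2+/+ and 19.5% (19.2 to 19.9) in the Id2-deleted library. Their total depth was 6785 and 7242 UMIs per cell, compared with 37679 and 40459 in erythroid-like cells under the limit. UMIs of the members per cell were 1177 and 1414, compared with 902 and 836. Member RNA was thus as abundant per cell as in the other erythroid-like cells or more so, and all other RNA was several-fold less abundant. Their erythroid markers summed to 20948 and 11520 CPM, against 18425 and 18623 CPM under the limit, a sum that includes 4 hemoglobin genes. The 9 other erythroid markers summed to 9617 and 10218 CPM above the limit and 9894 and 11170 CPM under it, and hemoglobin genes held 1.13% and 0.130% of UMIs above it and 0.853% and 0.745% under it. The part of their low depth in the member share was not tested.

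The number of such cells depended on where cells were called, and the minimum was 4393 UMIs in the Id2+/+ and 6177 in the Id2-deleted library. With the higher minimum in both, a choice made after seeing the data, 8 of 42 Id2+/+ erythroid-like cells (19.0%, 8.60 to 34.1) had 10% or more, against the same 7 of 163. With as many cells called as the labels give, the counts were 25 of 62 (40.3%, 28.1 to 53.6) and 10 of 168 (5.95%, 2.89 to 10.7), and 2 of 29 Id2+/+ neutrophil-like cells also had 10% or more. With at least 1000 UMIs and 500 genes the counts were 44 of 93 (47.3%, 36.9 to 57.9) and 108 of 314 (34.4%, 29.2 to 39.9), with intervals that overlapped. The intervals of the libraries did not overlap in the main call or when as many cells were called as the labels give, and overlapped narrowly with the same minimum.

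Under a 10% limit the 2 libraries came close to the values seen in HSCs. The remaining 35 Id2+/+ and 156 Id2-deleted erythroid-like cells had 2.39% (2.37 to 2.42) and 2.07% (2.06 to 2.08) of their UMIs in the members, a ratio of 0.863 (0.853 to 0.874). One member, mt-Nd3 (0.570, 0.512 to 0.636), was called lower and none higher, where 4.77% of 8790 genes were higher and 12.8% were lower. mt-Nd3 had 351 and 200 CPM in these cells, and its ratio was the lowest of the members in HSCs, in neutrophil-like cells and in erythroid-like cells with and without the limit. In empty droplets mt-Nd3 had a ratio of 0.842 (0.782 to 0.907), which was the highest of the 10 there, and mt-Nd4 had the lowest, 0.420.

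The same limit removed no HSC, no neutrophil-like cell and no hemoglobin-rich cell. The highest HSC had 4.14% in the Id2+/+ library and 7.20% in the Id2-deleted library, so a limit of 20% also left HSCs untouched and a limit of 5% removed 1 Id2-deleted HSC. A limit of 20% removed 6 and 2 erythroid-like cells, and with it the ratio in erythroid-like cells was 0.704. Over all called cells the 10% limit removed 4.58% of Id2+/+ and 1.11% of Id2-deleted cells, with 16.6% and 3.86% of the member UMIs. That no HSC was removed held for the depth at which cells were called. With a minimum of 1000 UMIs and 500 genes, 9 of 301 and 12 of 539 HSCs had 10% or more.

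**Figure D4:**
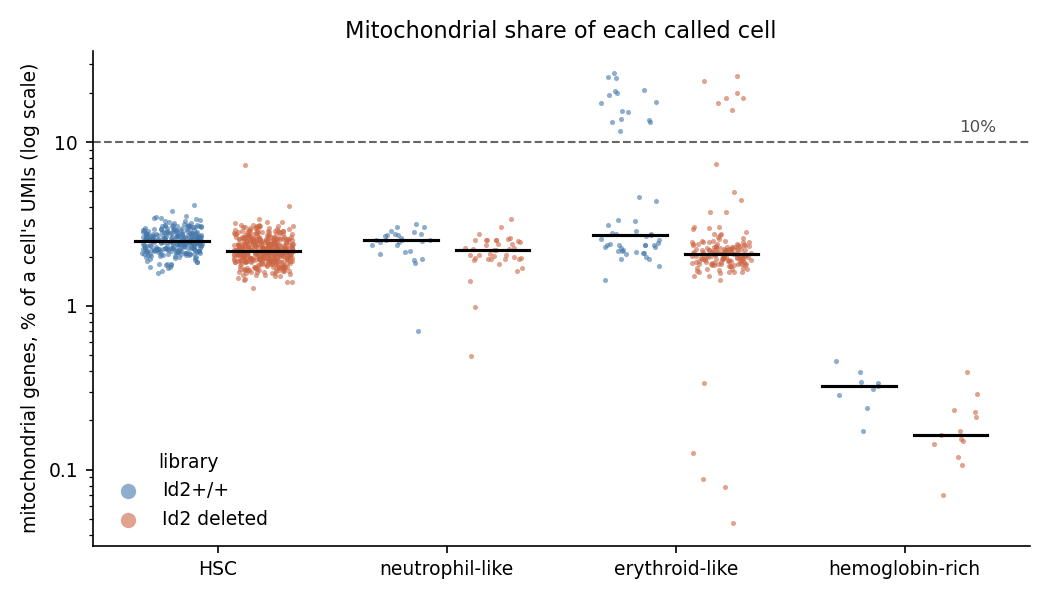
Percent of UMIs from mitochondrial genes in each called cell, by kind of cell and library, on a log scale, with black lines at the medians and a dashed line at 10%. The 23 cells above the line are all erythroid-like, 16 of them from the Id2+/+ library.

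Within the limit, erythroid-like cells and HSCs of the same library had nearly the same member share but a different make-up, in cells that also differed several-fold in depth. The summed ratio of erythroid-like cells to HSCs was 0.984 (0.970 to 0.998) in the Id2+/+ library and 0.964 (0.956 to 0.972) in the Id2-deleted library. mt-Nd1 was higher in erythroid-like cells, by 1.47 (1.41 to 1.54) and 1.46 (1.42 to 1.501), as was mt-Nd2, by 1.38 and 1.26. mt-Co1 was lower, at 0.754 (0.726 to 0.782) and 0.772 (0.756 to 0.788), as was mt-Cytb, at 0.871 and 0.799. mt-Atp6 (1.04 and 0.991) and mt-Co2 (0.999 and 0.984) were near 1. No member was called in either library, where 18.3% of 9231 genes were higher and 39.0% lower in the Id2+/+ library, and 17.3% of 10501 genes higher and 40.7% lower in the Id2-deleted library.

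The level of each member was then set out over the kinds of cells, taking erythroid-like cells under the limit and giving the Id2+/+ value before the Id2-deleted value. mt-Co1 was highest in HSCs, with 4161 and 3632 CPM, then 3544 and 3480 in neutrophil-like, 3137 and 2804 in erythroid-like and 468 and 474 in hemoglobin-rich cells. mt-Nd1 ran the other way outside hemoglobin-rich cells (419 and 125 CPM), from 1892 and 1595 in HSCs through 2421 and 1900 in neutrophil-like to 2786 and 2328 CPM in erythroid-like cells. mt-Atp6 was highest in neutrophil-like cells, with 6835 and 6301 CPM, against 6138 and 5328 in erythroid-like and 826 and 492 in hemoglobin-rich cells. The order of the kinds thus depended on the member, and over all cells was the same in both libraries for mt-Co1 and mt-Nd1. Median depth was 17626 and 17986.5 UMIs in neutrophil-like and 37549 and 40038.5 in these erythroid-like cells. The order of mt-Co1 in HSCs and neutrophil-like cells did not hold at nearer depth. HSCs of 13000 to 20000 UMIs had 3089 (2902 to 3285) and 2907 (2805 to 3013) CPM of mt-Co1, below neutrophil-like cells in both libraries. Their intervals overlapped those of the erythroid-like cells (3042 to 3234 and 2762 to 2845), which were still deeper, so no comparison at like depth was possible there. The mt-Nd1 of these HSCs, at 2039 and 1783 CPM, was still below that of neutrophil-like and erythroid-like cells. In the Id2-deleted library its interval (1703 to 1866) overlapped that of neutrophil-like cells (1801 to 2003).

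Members of complexes III and IV other than mt-Co1 changed less between the kinds. mt-Co2 had 2122 and 2108 CPM in neutrophil-like and 2232 and 2035 CPM in erythroid-like cells, close to the HSC levels. mt-Co3 had 4735 and 4150, and 4587 and 4168 CPM, and mt-Cytb 2503 and 2214, and 2267 and 1891 CPM in the same kinds. Of the other complex I members, mt-Nd2 had 390 and 307 CPM in neutrophil-like cells and 766 and 620 CPM in erythroid-like cells, below and above its level in HSCs, and mt-Nd4 had 1464 and 1002, and 1510 and 1173 CPM. mt-Nd5 stayed between 108 and 176 CPM in HSCs, neutrophil-like and erythroid-like cells. In hemoglobin-rich cells mt-Co3 had 579 and 340 CPM, and mt-Nd2 and mt-Nd5 rested on 4 UMIs or fewer in each library.

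The balance of mt-Co1 to mt-Nd1 was lower in erythroid-like cells than in all HSCs of the same library, which were several-fold shallower, and the deepest HSC cluster, with 1.10, lay below Id2-deleted erythroid-like cells under the limit. The balance was 1.13 (1.08 to 1.18) and 1.204 (1.18 to 1.23) in erythroid-like cells under the limit and 0.700 (0.660 to 0.744) and 0.837 (0.771 to 0.909) in those above it. Empty droplets gave 0.770 and 0.998. Hemoglobin-rich cells, with few UMIs, gave 1.12 (0.685 to 1.83) and 3.79 (2.07 to 7.39). By complex, complex IV genes took 47.5% and 47.3% of member UMIs in HSCs, 41.6% and 43.6% in erythroid-like cells under the limit, and 31.1% and 38.1% in empty droplets. Complex I genes took 17.6% and 16.5% in HSCs and 23.3% and 21.5% in those erythroid-like cells. Free RNA thus did not have the member make-up of the captured HSCs.

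Hemoglobin-rich cells, in which hemoglobin transcripts dominated, had the lowest member levels when scaled to all UMIs. The members summed to 260 UMIs in 9 Id2+/+ cells and 208 UMIs in 13 Id2-deleted cells, or 0.320% (0.283 to 0.362) and 0.186% (0.162 to 0.213). Hemoglobin genes held 87.2% and 88.3% of their UMIs. Over the UMIs outside hemoglobin genes, a scale added after seeing the data, the members held 2.49% (2.203 to 2.81) and 1.59% (1.38 to 1.82), against 2.44% and 2.14% in HSCs. The ratio to HSCs on that scale was 1.02 (0.903 to 1.16) in the Id2+/+ library and 0.742 (0.644 to 0.850) in the Id2-deleted library. No UMI of mt-Nd3 was found in these cells in either library. By a limit of 3 counts per library, its absence from 10428 and 13071 UMIs outside hemoglobin genes allows up to 288 and 230 CPM, which is above its level in HSCs (272 and 188 CPM), so a difference was not detectable at this depth.

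**Figure D5:**
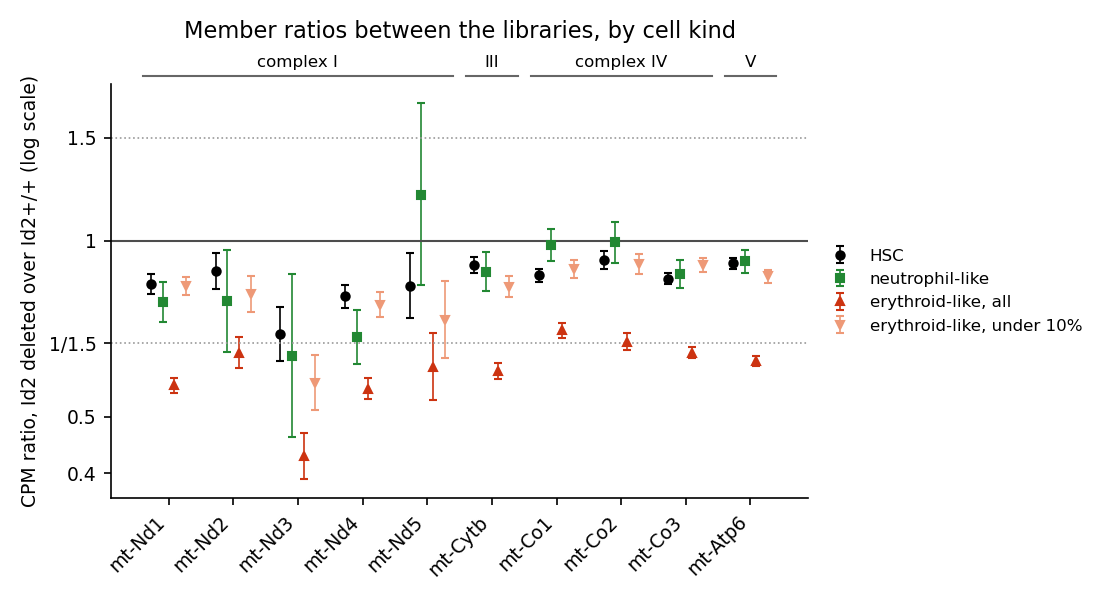
Ratio of CPM in the Id2-deleted over the Id2+/+ library for each member, on a log scale, in HSCs, neutrophil-like cells, all erythroid-like cells and erythroid-like cells under 10% mitochondrial UMIs, with exact 95% intervals. Dotted lines mark a fold of 1.5. mt-Nd3 is the lowest point in each of the 4 sets, and the erythroid-like ratios move toward 1 under the limit.

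The members were ranked against each other per kilobase of gene length, although a tag near the 3′ end is counted once per transcript whatever its length. In HSCs mt-Atp6 stood highest with 8633 and 7895 CPM per kilobase in the Id2+/+ and Id2-deleted library, followed by mt-Co3 with 6592 and 5675. mt-Co2 (3268 and 3025), mt-Co1 (2693 and 2351), mt-Cytb (2276 and 2068) and mt-Nd1 (1977 and 1667) followed. mt-Nd4 (1015 and 815), mt-Nd3 (780 and 540), mt-Nd2 (533 and 473) and mt-Nd5 (96.6 and 80.8) were the lowest. The order was the same in both libraries, and the counting intervals of neighbors did not overlap. Without division by length mt-Co1 and mt-Cytb stood above mt-Co2, and mt-Nd2 above mt-Nd3, in both libraries.

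The other protein-coding genes of the mitochondrial genome were at low counts. mt-Nd4l, a small complex I subunit, had 60.5 and 82.4 CPM in HSCs, a ratio of 1.36 (1.11 to 1.68), on a transcript it shares with mt-Nd4, whose ratio was 0.803. mt-Nd6, the complex I subunit encoded on the opposite strand, had 23.4 and 12.6 CPM (0.537, 0.362 to 0.799), and mt-Atp8, the partner of mt-Atp6 in ATP synthase, 66.1 and 35.9 CPM (0.542, 0.431 to 0.684). mt-Atp8 and mt-Nd6 passed the fold and mt-Nd4l did not. mt-Nd4l and mt-Atp8 share a transcript with a member and mt-Nd6 rested on 50 and 59 UMIs, so the values of all 3 are uncertain.

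The nuclear-encoded subunits of the same complexes were set beside the members in HSCs, and they lay on the other side of 1. Of 77 nuclear subunits of complexes I to V, 76 had a log2 ratio above 0, with a median of 0.28, where 41.0% of all genes tested lay above 0. None passed the fold of 1.5, where 3.30% of all genes were higher and 13.5% lower. The exception, named after its value was seen, was Cox7a2l, an assembly factor of respiratory supercomplexes, with 604 and 558 CPM (0.923, 0.863 to 0.988). Their summed level was 25743 CPM in Id2+/+ and 31074 CPM in Id2-deleted HSCs, whereas the members summed to 2.43% and 2.14% of UMIs. By complex the medians were 0.29 for 36 genes of complex I, 0.19 for 4 of complex II, 0.33 for 9 of complex III, 0.29 for 12 of complex IV and 0.26 for 16 of complex V, against −0.08 for all genes tested. Nuclear and mitochondrial subunits of one enzyme thus had ratios on opposite sides of 1 in the same cells when scaled to total UMIs as counted. With free RNA subtracted, 75 of the 77 nuclear subunits had ratios above 1 and their summed ratio was 1.22, against 1.21 as counted, but so had the members of complexes III and V (mt-Cytb at 1.05 and mt-Atp6 at 1.12) and mt-Nd1, mt-Nd2 and mt-Nd4 of complex I. The nuclear subunits were also higher in the empty droplets of the Id2-deleted library, with 33670 and 43365 CPM, a ratio of 1.29.

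Among nuclear genes named by their distance from 1, Ndufs8, an iron-sulfur subunit of complex I, had 157 and 217 CPM (1.39, 1.22 to 1.57), and Ndufa1, Ndufa5 and Ndufa12 had ratios of 1.37, 1.34 and 1.34. In complex II, which has no mitochondrially encoded subunit, Sdhc (1.23) and Sdhb (1.21) lay above Sdhd (1.08) and Sdha (1.04), and the intervals of Sdhd and Sdha held 1. In complex III, Uqcrq had 228 and 333 CPM (1.46, 1.32 to 1.62), the nearest to the fold of the named nuclear subunits, with Uqcr11 at 1.39, Uqcr10 at 1.30 and Uqcrb at 1.28. In complex IV, Cox5a had 380 and 522 CPM (1.38, 1.27 to 1.49), with Cox6b1 at 1.35, Ndufa4 at 1.31 and Cox7b at 1.28. In complex V, Atp5o (1.35) and Atp5l (1.34) were followed by Atp5j2 (1.28) and Atp5g1 (1.27). In complexes I, III, IV and V the nuclear subunits named thus had ratios above 1 while the mitochondrial members of the same complex had ratios below 1 before free RNA was subtracted.

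Genes that copy, transcribe and process mitochondrial DNA and RNA had, as a list, a median log2 ratio near the −0.08 of all genes tested. Many of them had few UMIs. Of 39 genes of this list tested, 18 had a log2 ratio above 0, with a median of −0.04, 1 was called higher and 2 lower, where 3.30% of all genes were higher and 13.5% lower. The first, named after its value was seen, was Tfb1m, which modifies mitochondrial ribosomal RNA, at 7.4996 and 11.95 CPM on 16 and 56 UMIs, and its ratio of 1.59 had an interval that held 1 (0.901 to 2.98). Tbrg4, an RNA-binding protein of mitochondria, had 32.3 and 21.3 CPM (0.660, 0.481 to 0.910), and Esrra, a nuclear receptor that acts on mitochondrial genes, 20.2 and 13.02 CPM (0.646, 0.430 to 0.978). Grsf1, which binds mitochondrial RNA in granules, had a ratio of 0.698 (0.533 to 0.918), and Nrf1, a transcription factor for nuclear respiratory genes, 1.31 (0.991 to 1.74).

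Across the 7 groups of at least 10 cells, each a kind of cell in 1 library, the nuclear genes whose log2 CPM was most like that of the summed members were Rpl35 (Pearson 0.993), Rps26 (0.991), Rplp2 (0.988), Rpl41 (0.987) and Hnrnpa2b1 (0.987), of 282 genes ranked. The first 4 encode ribosomal proteins and the last an RNA-binding protein. The single hemoglobin-rich group, in which Rpl35 fell to 71.6 CPM from at least 2644 CPM elsewhere, is far from the other groups on both axes.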

How the data were processed

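The deposited files are 1 raw UMI count matrix per library (737280 barcodes, 27998 genes), with no normalization and no call of cells. The submitters' processing notes name Cell Ranger 2.2.0 and mm10. The members and gene lists were chosen with earlier results of these data known. Cells were barcodes reaching 10% of the UMI count of the barcode at percentile 99 among the 1000 with most UMIs (minimum 4393 and 6177 UMIs), giving 349 and 632 cells, where the labels give 383 and 686 analyzed cells. No limit on the mitochondrial share was set in the main values, since it cuts on the members themselves. Limits of 5%, 10% and 20% were alternatives. No doublet caller was used. Barcodes of 1 to 100 UMIs served as empty droplets.

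Clustering was joint over the libraries and left out mitochondrial genes (scanpy 1.11.5, leidenalg 0.10.2, 2000 variable genes, 20 components, 15 neighbors, resolution 1, and 0.8 for HSCs alone, seed 0). A cluster was set apart as another kind when 4 or more markers exceeded a log2 fold of 1 and were found in 25% of its cells or more, and as hemoglobin-rich at 10% of UMIs in hemoglobin genes. HSC clusters were named from 3 or more markers beyond a log2 fold of 0.5, found in 10% of cells or more, and stayed unnamed where markers of another class were as many among their 10 leading genes. Summed counts were scaled to CPM (exact Poisson intervals), ratios were given with exact conditional intervals and shares with Clopper-Pearson intervals at 95% (SciPy 1.17.1, Python 3.11.15). With 1 library per genotype no test was run. Genes with at least 20 UMIs over both groups compared entered the background, and log2 ratios had 0.5 added to each count. TMM factors came from edgeR 4.0.16 (R 4.3.3). Intervals were tested on simulated counts for HSCs. Over 10458 genes, 200 of them changed 2-fold, 96.2% of intervals held the true ratio and 82.0% of those of changed genes excluded 1. The counts were drawn as Poisson counts, which is the model the intervals assume, with no spread between cells or libraries. They check the computation and not how well the intervals suit these data.

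Named genes were the 10 members, the 3 other mitochondrial genes, up to 4 genes per nuclear list with the ratio farthest from 1 among those with at least 100 UMIs, and the 5 genes most like the members over groups of cells, among those with at least 50 CPM in each. Positions are from RefSeq for GRCm38.p6. Other alternatives changed the scaling, the calling of cells, the clustering and the averaging over cells.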

Additional observations from a re-analysis of the deposited data

Results flagged for a closer look

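mt-Nd4l, a small subunit of complex I that is not among the 10 members, had opposite directions in HSCs and in all erythroid-like cells. Its ratio of Id2 deleted to Id2+/+ was 1.36 in HSCs (1.11 to 1.68, on 129 and 386 UMIs) and 0.724 in all erythroid-like cells (0.609 to 0.864, on 172 and 555 UMIs). The difference was not tested. In erythroid-like cells under 10% mitochondrial UMIs the ratio was 0.823 (0.678 to 1.005), an interval that holds 1, and in those at or over 10% it was 2.04 (1.28 to 3.24), on 41 and 39 UMIs. The value over all erythroid-like cells thus lies below that of both parts, which the libraries hold in different proportions. The gene shares a transcript with mt-Nd4, whose ratios in HSCs, all erythroid-like cells and those under 10% were 0.803, 0.558 and 0.777.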

How the results depend on the processing

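No paired analysis was possible because the design holds 1 library for each genotype, and for the same reason no library could be left out. The summed ratio in HSCs stayed below 1 under all 21 alternatives (0.779 to 0.991), of which 14 gave values within its counting interval. Some of the 14 only repeated the main value of 0.8808. The limits of 20% and 10% removed no HSC, and both changes of the clustering gave the same number of HSCs in each library. The summed ratio was 0.9486 with TMM factors, 0.9914 with free RNA subtracted and 0.7789 over cells of every kind. Alternatives chosen after seeing the data gave 0.908 in HSCs with Xist and no Y-linked UMIs, 0.8659 in those with Y-linked and no Xist UMIs, 0.9072 with the same UMI minimum in both libraries and 0.9435 as the mean over 4 shared UMI ranges. Past a fold of 1.2 there were 2 members. Of the members, mt-Nd3 kept a ratio from 0.682 to 0.745 under 15 alternatives, which include the same repeats.

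In erythroid-like cells the ratio stayed below 1 under all 16 alternatives, of which both changes of the clustering repeated the main value of 0.6247. It was 0.7044, 0.8634 and 0.8565 under limits of 20%, 10% and 5%, 0.6161 over UMIs outside the mitochondrial genome, 0.6323 without ribosomal protein genes and 0.7361 with TMM factors. It was 0.3899 as the mean over cells, 0.7785 as the median, 0.5655 when as many cells were called as the labels state, 0.725 with at least 1000 UMIs and 500 genes, 0.6042 without the deepest 5% of cells and 0.7295 with the same UMI minimum.

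The ratio of erythroid-like cells to HSCs turned with the limit. In the Id2+/+ library it was 1.45, and 1.262 under a limit of 20%, 0.9838 under 10% and 0.9838 under 5%. It was 1.402 without ribosomal protein genes, 1.674 with TMM factors, 2.934 as the mean over cells, 1.078 as the median, 1.67 with free RNA subtracted, 1.62 when as many cells were called as the labels state, 1.731 with at least 1000 UMIs and 500 genes and 1.507 without the deepest 5% of cells. In the Id2-deleted library it was 1.029, and in the same order 1.009, 0.9644, 0.9605, 1.004, 1.299, 1.287, 0.961, 1.06, 1.04 and 1.435, the last with at least 1000 UMIs and 500 genes. The cause of these changes was not tested.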
